A study of Drosophila melanogaster with 4 samples.

Results

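The copies described here are the annotated repeats of the last stretch of the left arm of chromosome 2 before the centromere (dm6, chromosome 2L). A copy was taken when its start was at or above position 22000000 on 2L. This gave 2095 of the 137555 repeat copies in the table, or 1.52%, lying between 22002829 and 23513712. The members were chosen by position alone, but the stretch was selected on counts of these same libraries, with its difference between the groups already seen. Its total and its strongest site are therefore descriptions of a known signal.

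Drosophila silences transposons in the ovary with PIWI-interacting RNAs (piRNAs), small RNAs that guide Argonaute proteins to matching transcripts and to chromatin. Most germline piRNAs come from clusters, which are stretches of broken and nested transposons, and many of these lie in pericentromeric heterochromatin. Copies of non-LTR elements (LINEs), which move through an RNA and have no terminal repeats, and of LTR retrotransposons, which do have them, make up much of this chromatin.

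Small RNAs of ovaries were sequenced from flies with a germline knockdown of Ars2, an RNA-binding partner of the nuclear cap-binding complex (hairpin Ars2_sh1, Vienna stock 106344, called Ars2KD), and from flies whose germline hairpin was aimed at white, an eye pigment gene (hairpin white_sh, Vienna stock 30033, the control, called wKD). Each group had 2 libraries, and total RNA was size-selected at 19 to 29 nt. The sources used here give neither the germline driver nor the age or number of flies per library, and hairpin target and stock background cannot be told apart. The labels do not say whether replicate libraries were made from separate flies. Each p-value thus reflects how far these samples vary, and that variation may be technical only.

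Counts are reads of 24 to 29 nt, the length of most fly piRNAs, per repeat copy. Ars2KD 1 had a table total of 46218 and Ars2KD 2 of 169124, while wKD 1 had 64395 and wKD 2 had 323180, so the libraries numbered 1 were shallower in both groups. The ovary label was checked in the companion miRNA table. The follicle cell miRNAs miR-318-3p, miR-994-5p and miR-989-3p together held 93683 to 146017 of each 1000000 miRNA counts. Singly, miR-994-5p held 68308 (Ars2KD 1), 6928 (Ars2KD 2), 53499 (wKD 1) and 14382 (wKD 2), higher in both libraries numbered 1. The range was 3859 to 20318 for miR-318-3p and 64218 to 82896 for miR-989-3p. On that scale the maternal and germline miR-184-3p held 119749 (Ars2KD 1), 475791 (Ars2KD 2), 115273 (wKD 1) and 350528 (wKD 2). Its level thus differed more between replicate numbers than between groups. The neural miR-124-3p had 0 counts in every library. The muscle miRNA miR-1-3p stood at 8147 to 17603 on that scale, and 6 testis-biased miRNAs together at 111 to 395; their part in the results was not tested. No mRNA was measured in these tables, so the level of Ars2 itself was not analysed here. No sequence of these copies is printed, since the reference used here holds annotation only.

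Repeats covered 62.1% of the stretch, against 7.16% of the rest of 2L, so it is repeat-dense as its pericentromeric label says; chromatin marks were not measured in these libraries. Named transposons and satellites made up 1838 of the 2095 copies and simple or low-complexity repeats 257. A count in any library was seen for 808 copies, of which 785 were named repeats. The 23 counted simple repeats held 144 of the 34814 counts. Counted copies had a median length of 346 bp and uncounted ones of 134 bp. Reads were concentrated on few copies: 28 copies held 50% of all counts, and 75 copies had more than 100. At the edge of the stretch, the first 2 counted copies inside, an INE-1 rolling-circle element and a simple repeat, had 7 and 1 counts in all, and the last 2 counted copies outside, both INE-1, had 14 and 2. The adjoining 50 kb windows held 5, 1, 2 and 22 counts outside and 18, 43, 15 and 238 counts inside (Ars2KD 1, Ars2KD 2, wKD 1, wKD 2, the order used throughout). Of the 238 counts of wKD 2 inside, 196 lay on 1 INE-1 copy (2L:22009275-22009721).

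The first comparison asked whether the stretch as a whole held more or fewer small RNAs after Ars2 knockdown. It held 3782, 12852, 3338 and 14842 counts, which is 8.18%, 7.60%, 5.18% and 4.59% of all repeat counts. Both Ars2KD shares lay above both wKD shares. The means were 7.89% ± 0.413 in Ars2KD and 4.89% ± 0.418 in wKD (SD, n = 2 each), and this difference was larger than the spread within either group. With 2 libraries against 2, the two-sided exact permutation test gave p = 0.333, the smallest it can give here. The log2 ratio of the shares was 0.66 for the number 1 libraries and 0.73 for the number 2 libraries. The stretch was also fitted as 1 row beside all repeat copies outside the pericentromeres, without a term for library number. Its log2 ratio was 0.80 (SE 0.172). This missed the threshold of 0.05 in edgeR's quasi-likelihood test with Benjamini-Hochberg adjustment over 570 rows (adjusted p = 0.831). With library number as a replicate block the log2 ratio was again 0.80, and it passed (adjusted p = 2.92e-06, edgeR). Deviations from group means correlated between same-numbered libraries (0.548 over 153 member copies). The numbers mark no stated batch, so the verdict depends on a choice of design that was not tested.

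Most of the difference between the groups in this stretch lay at 1 site. The copy of lowest p and all copies within 1 kb of it, called the jockey-gypsy8 site from its leading elements, held 997, 4764, 10 and 26 counts. Without those 6 copies the stretch held 6.16%, 4.92%, 5.17% and 4.58% of repeat counts, and the groups overlapped. The means were then 5.54% ± 0.875 and 4.88% ± 0.413 (SD, n = 2 each; exact permutation p = 0.667). The fitted log2 ratio was then 0.24 (SE 0.160; adjusted p = 0.927, edgeR).

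Pericentromeric parts of the other chromosomes gave the level to set this against. Repeats of X from position 21000000 held a mean 13.7% ± 1.36 of Ars2KD counts and 13.0% ± 1.22 of wKD counts, those of 3L from 23000000 held 19.2% ± 1.52 and 18.2% ± 2.58, and those of 3R below 4200000 held 13.9% ± 0.686 and 12.4% ± 1.07 (SD, n = 2 each). In share, groups overlapped on X and 3L (exact permutation p = 0.667 for each) and did not overlap on 3R (exact permutation p = 0.333). In the scaled counts of the fit, both Ars2KD libraries lay above both wKD libraries on X, 3L and 3R, as on 2L. Their fitted log2 ratios were 0.17 (SE 0.135) for X, 0.19 (SE 0.127) for 3L and 0.28 (SE 0.146) for 3R, and the edgeR adjusted p was 0.840 or more for each. The difference between these ratios and that of 2L was not tested.

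**Figure D1:**
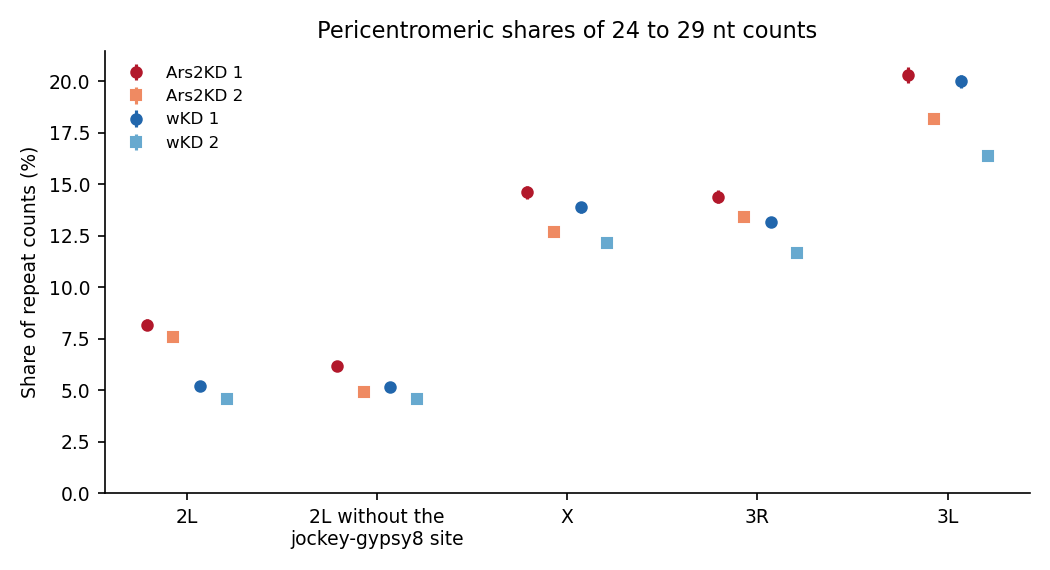
Share of all 24 to 29 nt repeat counts (%, vertical axis) that fell in 4 pericentromeric parts, and in 2L without the jockey-gypsy8 site, for each library (points) with exact 95% binomial intervals (bars, often smaller than the points). On 2L both Ars2KD points, at 8.18% and 7.60%, lie above the wKD points at 5.18% and 4.59%, and without the site the groups overlap.

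The counts were not spread evenly along the stretch. In 50 kb windows from its distal edge, the 6 richest of 31 windows held 71.2% of all counts. They began 250, 350, 600, 1050, 1200 and 1300 kb from that edge. The window at 1050 kb held 489, 1285, 511 and 2085 counts and the window at 250 kb held 387, 924, 355 and 1427. The windows at 350 kb and 600 kb held 247, 624, 384 and 1460, and 339, 1179, 298 and 1524. At 1200 kb there were 178, 732, 388 and 2226 counts. Apart from the window at 1300 kb, the other 5 were among the 6 richest windows in each of the 4 libraries.

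The emptiest ground was a stretch of 100 kb that began 800 kb from the edge (2L:22800001-22900000). It carried 166 repeat copies with 64.9 kb of repeat sequence, but only 1, 3, 2 and 3 counts on 5 copies. That is 0.139 counts per kb of repeat over the 4 libraries, against 36.8 over the whole region and 30.7 over the region without the jockey-gypsy8 site. Its copies were of kinds counted elsewhere in the region, among them 12 Cr1a LINE copies (DMCR1A in the table), 16 copies of the DNA transposon 1360 (PROTOP) and 15 of INE-1 (DNAREP1_DM), which had 0 counts here. The coding gene CG17715 and the long noncoding RNA lncRNA:CR43266 lie in it. Whether reads could be placed uniquely on these copies was not tested.

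**Figure D2:**
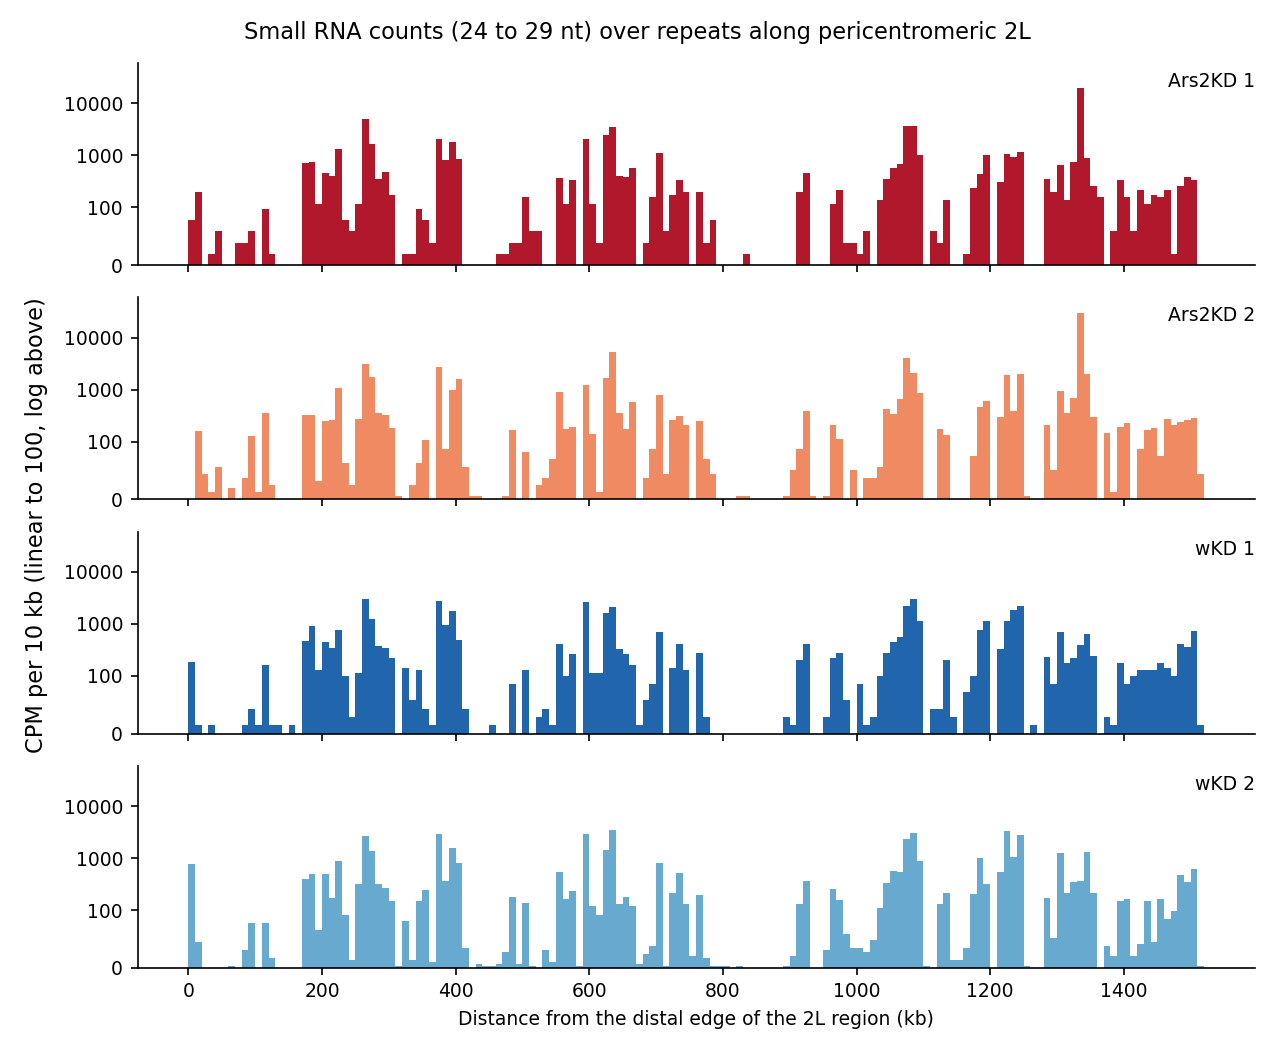
Scaled counts (CPM, counts per 1000000 after TMM scaling; vertical axis, linear to 100 and logarithmic above) in 10 kb bins against distance from the distal edge of the region (kb), 1 panel per library. The 4 profiles share most peaks and an almost empty stretch from 800 to 900 kb, and the bin at 1330 kb stands at 20082 and 30077 CPM in Ars2KD and at 389 and 367 CPM in wKD.

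The window comparison asked where along the stretch the groups differed. The window at 1300 kb (2L:23300001-23350000) held 1156, 5433, 147 and 1013 counts. Its scaled level was 27790 ± 7805 CPM after Ars2 knockdown and 2865 ± 958 CPM in the control (SD, n = 2 each; CPM are counts per 1000000 after TMM scaling). That is a rise of 3.27 on the log2 scale (SE 0.359; adjusted p = 0.0256, edgeR), and each pair of equal number gave 3.35 and 3.23. Of the 29 windows of the region that could be tested, it was the 1 called higher, while 0.425% of all 471 windows tested in the genome were called higher. Both edgeR and DESeq2 called 0 windows of the region lower, with 2 below an unadjusted p of 0.05 in edgeR, and 0.212% of all windows were called lower in edgeR. DESeq2 also called 1 window of the region, that at 1300 kb and higher, beside 1.27% of all windows in each direction. Without the jockey-gypsy8 site, 0 windows of the region were called, as was the case with windows of 100 kb.

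The other 28 tested windows ranged from -1.07 to 1.07 in log2 ratio. In all, 17 windows lay above 0 and 12 below, with a median of 0.14 against 0.03 over all windows tested. The groups did not overlap in 8 windows with Ars2KD higher and in 8 with Ars2KD lower, which is 27.6% in each direction, beside 21.4% and 25.1% of all windows. The window at 1200 kb, where the LTR elements Max and opus lie, had an Ars2KD mean of 3958 ± 748 CPM and a wKD mean of 6779 ± 1421 CPM (SD, n = 2 each). Its log2 ratio was -0.77 (SE 0.276; adjusted p = 0.330, edgeR). The windows at 250, 350, 600 and 1050 kb had log2 ratios of 0.35, -0.34, 0.49 and 0.21, with an edgeR adjusted p of 0.471 or more.

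**Figure D3:**
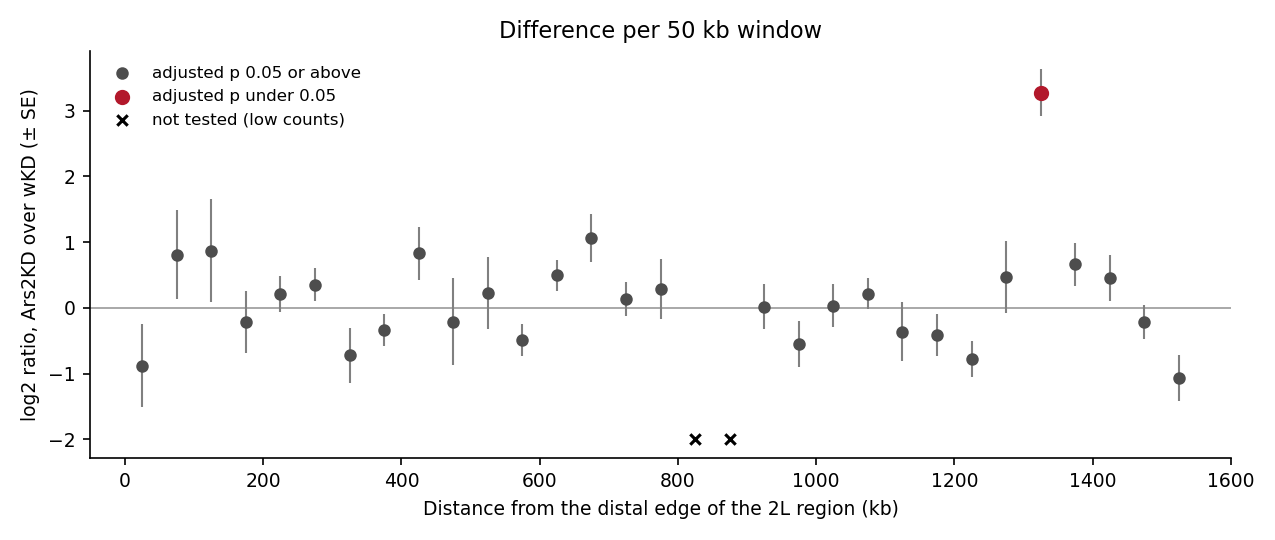
Fitted log2 ratio of Ars2KD over wKD (points, ± SE) for each 50 kb window against distance from the distal edge of the region (kb). The window at 1300 kb, in red, has a log2 ratio of 3.27, all other tested windows lie between -1.07 and 1.07, and crosses mark the 2 windows with too few counts to test.

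The jockey-gypsy8 site spans 2L:23330987-23332738, between genes, 6795 bp from the pseudogene CR42530. It begins with parts of the LTR element Invader1. Then come a fragment of jockey, a LINE that codes for its own reverse transcriptase (LINEJ1_DM, 2L:23331997-23332192, 196 bp), and 3 fragments of the LTR element gypsy8. The first of these is from its LTR (Gypsy8_LTR, 2L:23332252-23332474, 223 bp), and the others are from its internal part (Gypsy8_I-int, 2L:23332475-23332552, 78 bp, and 2L:23332648-23332738, 91 bp). None of the 6 copies overlapped an insertion named in the gene annotation.

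The jockey fragment had 435, 1316, 2 and 11 counts, or 8473, 8250, 28.8 and 38.4 CPM. Both Ars2KD libraries were far above both wKD libraries, and the scaled levels within each group were close. It was the 1 member copy called higher of 153 tested, and also the 1 copy called higher of all 1647 tested (0.0607%). Its log2 ratio was 7.86 (SE 0.627; adjusted p = 0.00602, edgeR). It passed the filter on low counts, which asked for 85.6 CPM in 2 libraries, through Ars2KD alone, so its call rests on a filter that its own high group decided. Without that filter it was also called (log2 ratio 7.63; adjusted p = 3.06e-08, edgeR). That fit used the same counts of this copy, so it adds no separate support.

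The gypsy8 LTR fragment had 322, 290, 1 and 0 counts. For the number 1 libraries its log2 ratio was 8.77, with an exact 95% counting interval from 6.28 to 14.07. For the number 2 libraries, where wKD had 0 counts, it was at least 173-fold higher when 3 counts stood in for the 0, and the exact 95% lower limit of the log2 ratio was 7.13. The groups did not overlap, but the scaled level differed between the Ars2KD libraries, at 6272 and 1818 CPM, and the copy missed the threshold (edgeR adjusted p = 0.0859).

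The longer gypsy8 internal fragment had 221, 3139, 0 and 4 counts. For the number 2 libraries its log2 ratio was 10.46 (interval 9.10 to 12.34), and for the number 1 libraries it was at least 99.6-fold higher when 3 counts stood in for the 0, with an exact 95% lower limit of 6.33 on the log2 scale. Its Ars2KD levels, 4305 and 19677 CPM, also differed from each other, and it missed the threshold (edgeR adjusted p = 0.0525). DESeq2, run on the same filtered counts, called jockey and both gypsy8 fragments higher. Both gypsy8 fragments also entered the tests through Ars2KD alone, so the second tool's calls are not independent support. Leaving out any 1 of the 4 libraries, edgeR called the same 3 copies higher, but these fits have 1 library in an arm and take the spread from the other group.

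The rest of the site was quiet. The short gypsy8 fragment between the other gypsy8 copies had 9, 2, 0 and 0 counts, the Invader1 LTR (2L:23331428-23331769) had 6, 17, 7 and 3, and the Invader1 internal part (2L:23330987-23331427) had 4, 0, 0 and 8. The site as a whole had a mean of 24642 ± 7385 CPM across Ars2KD and of 117 ± 37.7 CPM across wKD (SD, n = 2 each). Its composition differed between the Ars2KD libraries: the jockey fragment held 43.6% and 27.6% of the site's counts, the gypsy8 LTR fragment 32.3% and 6.09%, and the 91 bp internal fragment 22.2% and 65.9%. The site made up 26.4% and 37.1% of the region's counts in the Ars2KD libraries, and 10 of 3338 and 26 of 14842 counts in the wKD libraries.

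Repeats next to the site were measured with the same libraries. The 36 other copies within 15 kb held 99, 447, 70 and 551 counts. Their log2 ratio was 0.93 for the number 1 libraries (exact 95% interval 0.48 to 1.40) and 0.54 for the number 2 libraries (0.36 to 0.72), against 7.07 and 8.36 for the site. The nearest counted copy on the centromere side, an INE-1 element that starts 3475 bp from the first copy of the site, had 9, 0, 2 and 3 counts. A fragment of the LTR element BEL (BEL_I-int, 2L:23344400-23347262) had the most counts of these, with 22, 257, 20 and 300.

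**Figure D4:**
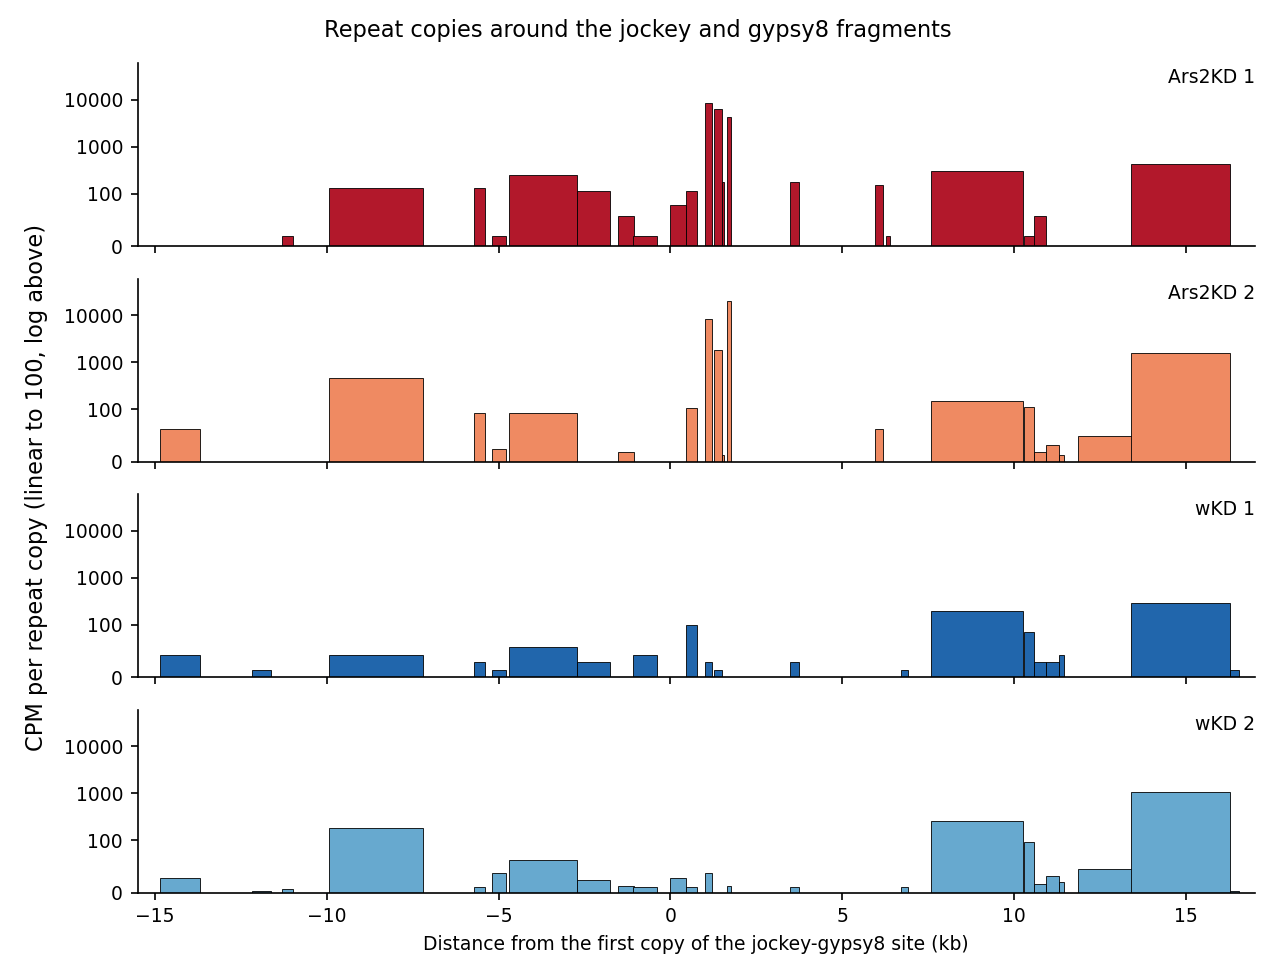
Scaled counts of each repeat copy (CPM, vertical axis, linear to 100 and logarithmic above) against distance from the first copy of the jockey-gypsy8 site (kb), 1 panel per library; bar width is copy length. In both Ars2KD libraries 3 short copies between 1 and 2 kb stand above 1000 CPM, and in both wKD libraries the same copies stay under 100 CPM.

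The comparison per repeat name asked which elements of the stretch carried the difference, with the same names outside the stretch fitted beside them. Of 298 names present, 158 were transposons or satellites, 132 of these were counted, and 72 names could be tested inside. The LINE jockey (LINEJ1_DM, 10 copies) had 475, 1477, 35 and 205 counts inside the stretch and rose with Ars2 knockdown from 617 ± 170 to 9201 ± 250 CPM (SD, n = 2 each), by 3.88 on the log2 scale (SE 0.356; adjusted p = 0.00162, edgeR). The LTR of gypsy8 (Gypsy8_LTR, 16 copies) had 356, 375, 37 and 103 counts and rose from 447 ± 109 to 4572 ± 3099 CPM, by 3.37 on the log2 scale (SE 0.543; adjusted p = 0.0426, edgeR), a call that was lost with scaling to the repeat table total (adjusted p = 0.535) and without Ars2KD 1 (2.38 on the log2 scale; adjusted p = 0.136). The internal part of gypsy8 (Gypsy8_I-int, 27 copies) had 342, 3675, 104 and 514 counts and a log2 ratio of 3.16 (SE 0.592), but missed the threshold (edgeR adjusted p = 0.0739). It passed in DESeq2 (adjusted p = 1.43e-05), with scaling to both tables, without the filter, with named repeats alone and with any 1 library left out. Jockey and the gypsy8 LTR were the 2 names called higher inside, and also the 2 rows called higher of all 295 rows of names inside and outside (0.678%). DESeq2 called 3 names inside higher, and these were also the 3 rows it called higher of all rows (1.02%). Both tools called 0 names inside lower, beside 0% of all rows in edgeR and 0.339% in DESeq2, and in edgeR 0 had a lower value with an unadjusted p under 0.05.

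The other copies of the same elements in the stretch had smaller ratios, and the difference was not tested. Without the site, jockey had 40, 161, 33 and 194 counts over 9 copies and a log2 ratio of 0.61 (SE 0.419; adjusted p = 0.965, edgeR). The gypsy8 internal part had 112, 534, 104 and 510 counts over 25 copies and a log2 ratio of 0.75 (SE 0.347; adjusted p = 0.965, edgeR), and the gypsy8 LTR had 34, 85, 36 and 103 over 15 copies and 0.44 (SE 0.456; adjusted p = 0.996, edgeR). Outside the stretch, log2 ratios were 0.47 for jockey (SE 0.327), 0.18 for the gypsy8 internal part (SE 0.376) and 0.61 for the gypsy8 LTR (SE 0.314), with an edgeR adjusted p of 0.969 or more. The stretch held 83.5% and 81.0% of all jockey counts of the Ars2KD libraries, against 27.3% and 32.0% for wKD. For the gypsy8 LTR it held 71.1% and 37.8%, against 19.4% and 14.4%. Groups did not overlap for either share (exact permutation p = 0.333 for each, the smallest possible). These are the names called higher inside the stretch from the same counts, so the shares add no separate support.

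Among the other LINEs, Rt1b (DMRT1B, a relative of the rDNA element R1) held 8.28% of the region's counts on 16 copies, with 393, 735, 406 and 1348 counts. Its levels were 6067 ± 1980 and 5301 ± 642 CPM in Ars2KD and wKD (SD, n = 2 each), and the groups overlapped. Rt1a (DMRT1A) had 172, 534, 160 and 733 counts and 3329 ± 86.9 against 2452 ± 260 CPM, with both Ars2KD libraries above both wKD libraries and a log2 ratio of 0.44 (SE 0.291; adjusted p = 0.969, edgeR). The LOA-group LINE baggins (Baggins1) held 7.65% of counts, with 244, 774, 273 and 1371, and a log2 ratio of 0.12 (SE 0.298). Cr1a (DMCR1A) had 101 copies, of which 50 were counted, and 127, 246, 177 and 629 counts (log2 ratio -0.27, SE 0.339). FW_DM, also a LINE, had 38, 135, 68 and 367 counts and a log2 ratio of -0.53 (SE 0.379).

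Ratios of single baggins copies had both signs, and none passed the threshold. The baggins copy with the most counts (2L:23078580-23080057) had 97, 485, 71 and 394 counts, and both Ars2KD libraries lay above both wKD libraries (log2 ratio 1.04, SE 0.531; adjusted p = 0.998, edgeR). Another baggins copy (2L:22596304-22598229) had 13, 17, 26 and 230 counts, and both Ars2KD libraries lay below (log2 ratio -1.78, SE 0.761; adjusted p = 0.998, edgeR), with most of its counts in wKD 2. The neighbouring copy at 2L:22599103-22600104 had 43, 72, 64 and 314 counts, also with Ars2KD below, and a log2 ratio of -0.66 (SE 0.590). Of 9 baggins copies tested, 4 had a log2 ratio above 0 and 5 below.

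LTR retrotransposons held 51.1% of the region's counts and LINEs 40.8%. Without the jockey-gypsy8 site the LTR share was 45.3% ± 2.22 in Ars2KD and 47.2% ± 2.36 in wKD, and the LINE share 45.8% ± 1.92 and 42.3% ± 1.99 (SD, n = 2 each). The internal part of opus (NOMAD_I-int in the table) had 59, 349, 152 and 887 counts and a log2 ratio of -0.67 (SE 0.410; adjusted p = 0.969, edgeR). Its 4 tested copies all had log2 ratios below 0, from -1.12 to -0.38. The opus copy at 2L:23240758-23241264, 347 bp from lncRNA:CR46253, had 20, 58, 58 and 219 counts, with both Ars2KD libraries below both wKD libraries (-1.09, SE 0.569), and the richer copy at 2L:23241380-23241833 had 30, 254, 74 and 513 with overlapping groups (-0.38, SE 0.654). HMS-Beagle (HMSBEAGLE_I-int, 101 copies) had 122, 353, 180 and 751 counts and a log2 ratio of -0.21 (SE 0.290). Max (MAX_I-int) had 56, 270, 89 and 778 counts, 82.2% of them on 1 copy at 2L:23225180-23230614 (name log2 ratio -0.55, SE 0.457). That copy had 39, 231, 59 and 652 counts, with overlapping groups (-0.50, SE 0.666). Invader4 (Invader4_I-int) had 35, 42, 57 and 184 counts (-0.69, SE 0.538), and none of these LTR names passed the edgeR threshold.

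Per kb of annotated copy, LINEs had 64.3 counts over the 4 libraries, LTR elements 33.5, rolling-circle elements 26.8 and DNA transposons 11.1. Without the jockey-gypsy8 site LINEs had 56.4 and LTR elements 25.9, which put LTR elements just below the rolling-circle elements. INE-1, which made up all 275 rolling-circle copies here, had 94 counted copies with 96, 352, 132 and 878 counts. Its log2 ratio was -0.31 (SE 0.357). Its top copy (2L:22631494-22631926), in an intron of CG40006, had 1, 208, 10 and 333 counts, so nearly all of its reads were in the libraries numbered 2 of both groups. PROTOP_B and PROTOP_A, related to the P-like DNA transposon 1360, had opposite signs. PROTOP_B had 29, 108, 19 and 80 counts and 618 ± 95.3 against 278 ± 12.9 CPM (SD, n = 2 each), without overlap (log2 ratio 1.15, SE 0.493; adjusted p = 0.858, edgeR), and PROTOP_A had 25, 16, 65 and 98 counts with overlapping groups (-1.19, SE 0.817). Satellites had 60 copies, 9 of them counted, with 19, 45, 19 and 82 counts. Over the 72 names tested, 38 log2 ratios lay above 0 and 34 below, with a median of 0.09 against -0.05 over all rows of names. Groups did not overlap for 16 names higher and 4 lower, 22.2% and 5.56%, beside 15.3% and 15.9% of all rows.

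**Figure D5:**
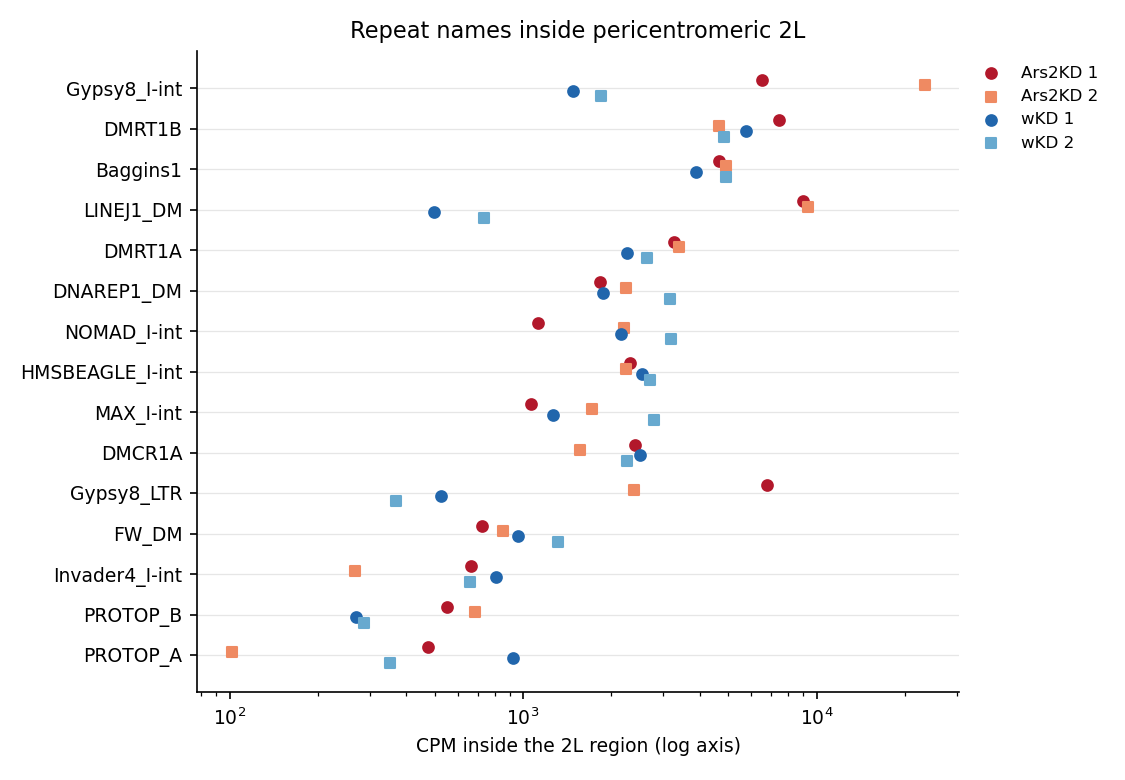
Scaled counts inside the region (CPM, log axis) of the 15 repeat names described, 1 point per library. The Ars2KD points of LINEJ1_DM, Gypsy8_I-int and Gypsy8_LTR lie above their wKD points, which for LINEJ1_DM are 9201 against 617 CPM in the mean, and by smaller steps the Ars2KD points lie above for PROTOP_B and DMRT1A and below for HMSBEAGLE_I-int and FW_DM.

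At the level of single copies, 153 of the 2095 members passed the filter on low counts, and they held 83.4% of the region's counts; 655 counted copies and the 1287 without a count were not tested. Called were 1 higher and 0 lower in edgeR, with 3 higher and 0 lower at an unadjusted p under 0.05, all 3 at the jockey-gypsy8 site, and 3 higher and 0 lower in DESeq2. Over all copies, edgeR called 0% lower, and DESeq2 called 0.243% higher and 0.182% lower. Of the 153 members, 13 passed the filter through Ars2KD alone and 0 through wKD alone, so the counts and the median that follow lean toward higher values and support nothing by themselves. An INE-1 copy that the filter left out (DNAREP1_DM, 2L:22009275-22009721, between genes) had 0, 0, 5 and 196 counts. It was called lower without the filter (adjusted p = 1.13e-05, edgeR) and with wKD 1 left out (adjusted p = 0.0013, edgeR), and nearly all of its counts were in wKD 2. Log2 ratios lay above 0 for 85 members and below for 68, with a median of 0.09 against -0.01 over all copies. Groups did not overlap for 35 members higher and 21 lower, 22.9% and 13.7%, beside 17% and 16.9% of all copies. Leaving out the site, the 149 other tested members ranged from -2.08 to 2.95, and their lowest unadjusted p was 0.0513.

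Further copies with separate groups and the lowest p had few reads. A Cr1a fragment 114 bp from CG31693 (2L:22014647-22015076) had 7, 20, 1 and 7 counts (log2 ratio 2.60, SE 1.14). A copy of the LTR element Burdock (2L:23442919-23447249) had 7, 22, 2 and 11 (1.96, SE 0.973). Both of these passed the filter on low counts through Ars2KD alone, so their own high group decided that they were tested. On the lower side an R1 copy in an intron of CG3635 (2L:22180593-22181017) had 6, 6, 18 and 55 counts (-1.66, SE 0.852). A rooA copy near the proximal end (2L:23504449-23506213) had 7, 18, 29 and 76 (-1.45, SE 0.707), and an Invader4 copy at 2L:23231961-23232525 had 7, 17, 20 and 71 (-1.15, SE 0.690). The edgeR adjusted p was 0.998 for each.

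The heterochromatin of 2L holds genes with long, repeat-filled introns, the classic example being light (lt). Copies between genes held 81.6% of counts, copies in introns 16.4% and copies touching an exon 1.98%. The lt gene, a vacuolar sorting factor known for needing heterochromatin to be expressed, contained 34 copies but only 5 with counts, at 22, 63, 27 and 100. Marf1 contained 90 copies with 11, 35, 31 and 143 counts. Its repeats had an Ars2KD mean of 217 ± 3.64 CPM and a wKD mean of 473 ± 37.4 CPM (SD, n = 2 each). The groups did not overlap, with Ars2KD lower, and this was not tested. The gene with the most counted repeats was CG40006, a coding gene on the minus strand (2L:22622417-22756349) with 193 copies, 101 of them counted, and 486, 1553, 417 and 2050 counts. Its repeats had an Ars2KD mean of 9601 ± 190 CPM and a wKD mean of 6586 ± 816 CPM (SD, n = 2 each), without overlap, which was not tested. Among them were 2 adjoining Rt1a copies. The copy at 2L:22633439-22634419 had 63, 188, 61 and 192 counts with Ars2KD above wKD (log2 ratio 0.64, SE 0.534), and the copy at 2L:22633165-22633463 had 34, 193, 22 and 190 with overlapping groups (0.92, SE 0.653). The Rt1b copy with the most counts (2L:22264224-22265071, 5964 bp from Tif-IA) had 134, 228, 108 and 334 counts, also with overlapping groups (0.57, SE 0.550). Copies closely alike in sequence may share reads, so values of single copies are uncertain to that extent.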

How the data were processed

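Ovary small RNA libraries of 2 groups (2 Ars2KD, 2 wKD) were used. The authors deposited raw counts of 24 to 29 nt reads per annotated repeat copy and raw counts per mature miRNA locus, per the file headers. Reads were handled with Trimmomatic, FastQC, Bowtie2 and featureCounts on dm6, per the submitters' processing notes. Tool versions, mapping settings, strand use and the fate of reads that match several copies are not given in the sources used here. Gene names and insertions came from Ensembl release 115 on the same assembly.

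All tests were fitted on the whole repeat table by the edgeR quasi-likelihood test (version 4.0.16, R 4.3.3), after TMM scaling and filterByExpr by group, without a replicate block, at a Benjamini-Hochberg adjusted p under 0.05, on copies, on names split into inside and outside the region, on 50 kb windows and on the region as 1 row. SE is the log2 ratio over the square root of F. DESeq2 1.42.0 was an alternative. The edgeR fit was also run on simulated counts with large planted changes and a fixed spread for all copies. That run does not show how the fit performs on smaller changes or on the spread of these libraries. CPM are counts per 1000000 after TMM scaling within each fit. Shares used a two-sided exact permutation test and exact Clopper-Pearson 95% intervals; these intervals, and a floor of 3 counts in each library (64.9, 17.7, 46.6 and 9.28 CPM before TMM scaling in Ars2KD 1, Ars2KD 2, wKD 1 and wKD 2) cover counting error only. In a chi-square test over 189 repeat names no library repeated another. The statistic per degree of freedom was 12.1 for Ars2KD 1 with wKD 1 and 68.3 for Ars2KD 2 with wKD 2. Within groups it was 46.2 (Ars2KD) and 54.1 (wKD). It grows with depth, and a grouping of libraries by number was not tested. Of the region's copies, 384 overlap an earlier copy. Summaries and plots used matplotlib 3.10.9, scipy 1.17.1, pandas 2.3.3 and numpy 2.4.6 under Python 3.11.15.

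Members, lists and named items were chosen with earlier results of these data known. Named were the 12 copies and 10 names with the most counts, the 6 richest windows, everything past the threshold, and by lowest p up to 5 copies whose groups did not overlap and up to 4 names in each direction. Boundary copies, the quiet stretch, genes and the flanks of the site were described without tests; the quiet stretch, the genes, the satellites and the INE-1 copy at 22009275 were chosen after their values were seen.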

Additional observations from a re-analysis of the deposited data

How the results depend on the processing

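The log2 ratio of the whole region stayed above 0 in each alternative tried, from 0.24 without the jockey-gypsy8 site to 0.93 with overlapping copies dropped, and was 0.62 to 0.90 with 1 library left out. Its share difference ranged from 0.663 points without the site to 3.84, and from 2.71 to 3.30 with 1 library left out. Member copies called were 2 with scaling to the repeat table total or to both tables, 3 with DESeq2, 4 without a filter (3 higher, 1 lower), 0 without the site, and 3 to 4 with 1 library left out; the 4th, without wKD 1, is the INE-1 copy at 22009275, called lower. Names called were 1 with scaling to the repeat table total, 0 without the site, 3 with DESeq2, scaling to both tables, no filter or named repeats alone, and 2 to 3 with 1 library left out (without Ars2KD 1 the gypsy8 LTR was lost and its internal part called). Windows called were 0 without the site and 0 with 100 kb windows, and 1 with each library left out. The replicate numbers mark no stated batch, although deviations from group means correlated between same-numbered libraries (0.548 over 153 member copies); with the replicate block the region log2 ratio was 0.80 (adjusted p 2.92e-06), and 5 copies (3 higher, 2 lower), 6 names (4 higher, 2 lower) and 5 windows (3 higher, 2 lower) were called. The lower copies were baggins at 22596304 (-1.89, adjusted p 0.0147) and PROTOP_A at 23232900 (-2.72, adjusted p 0.0162). With the block the lower names were opus (adjusted p 0.0443, edgeR) and PROTOP_A (adjusted p 0.0217, edgeR). PROTOP_B (adjusted p 0.0434, edgeR) was called higher beside jockey and both gypsy8 parts. The lower windows were those at 1200 kb (adjusted p 0.0210, edgeR) and 1500 kb, and the higher ones those at 400, 650 and 1300 kb. In the whole table the block brought the calls to 23 higher and 46 lower of 1647 copies, 10 and 17 of 295 rows of names, and 21 and 31 of 471 windows. Of 41 named items under these alternatives, 31 kept their sign throughout. The INE-1 copy in CG40006 turned to -0.44 with scaling to both tables, -0.15 without a filter and -0.30 with the block, and ranged from -5.10 to 2.25 with 1 library left out. Leaving out 1 library also turned the Rt1b copy (-0.0214 to 0.91) and name (-0.23 to 0.59), the Max copy (-1.18 to 0.40) and name (-0.97 to 0.16), the richer opus copy (-1.34 to 0.0596), the BEL copy (-0.72 to 1.85), baggins (-0.00825 to 0.33), INE-1 (-0.60 to 0.14) and Cr1a (-0.65 to 0.11). The jockey fragment stayed called in each fit that held it, at 7.59 to 8.13. The cause of these changes was not tested. Depth limited the test to 153 members, with only 46218 repeat counts in the shallowest library.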
